A study of Mus musculus with 2 samples.

Results

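Introns spanning 100 kb or more were examined through splice junction reads of polyadenylated RNA. The RNA came from embryonic mouse tissue (strain C57BL/6J, day 18) labelled as central nervous system. An intron was taken as a member if the junction across it is annotated and spans 100000 nt or more. In addition its junction had to hold 10 or more reads in each of 2 replicates and an irreproducibility score of at most 0.1. The rule found 904 introns among 142133 annotated introns that meet the same read and score limits, or 0.636%. The members were thus selected on length and on junction reads, and both are given as descriptions with no test. Both libraries form 1 group, from tissue of littermates of both sexes per the labels, so there is no comparison between conditions. The labels name no transgene or treatment. They give the libraries as separate biosamples, with no number of embryos.

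An intron is transcribed in full and then removed by the spliceosome, which joins the donor site at its 5′ end to the acceptor site at its 3′ end. A read that crosses the resulting exon junction is direct evidence of that joining. Very long introns are known from genes of the nervous system, above all from genes of synaptic adhesion molecules and receptors. In such genes some introns are removed in several steps, through sites inside the intron that join to the upstream exon and at once offer a new donor site, which is called recursive splicing. In bulk tissue, fewer cells of a type and less RNA per cell cannot be told apart.

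The bases joined across a few members show what the junction reads carry, and they are printed here because some members of one family of host genes share them. Negr1, Ntm, Opcml and Lsamp encode the IgLON proteins, which are cell adhesion molecules of the neuronal surface with immunoglobulin domains. Each holds a member in phase 2, that is after the second base of a codon, and these members span 297084, 232301, 270721 and 355383 nt. The sequences are transcript bases of GENCODE M21 on GRCm38, 15 from each side of the intron. They flank the introns chr3:156562353-156859436 (Negr1, plus strand), chr9:29179255-29411555 (Ntm, minus strand), chr9:28404413-28675133 (Opcml, plus strand) and chr16:41533532-41888914 (Lsamp, plus strand). The last 2 bases before the intron and the first base after it are in capitals.
Negr1: cacagcggtgctcAGGtgttacttggaaga
Ntm: gagcgccaccctcAGGtgcacaattgacaa
Opcml: gagcgccaccctcAGGtgtaccatagatga
Lsamp: cacggccatcctcAGGtgtgtggtagaaga
All 4 have the same base at 15 of the 30 positions, and Ntm and Opcml at 25 of 30. A second member of Negr1 (156512 nt, chr3:156859670-157016181) and one of Opcml (137920 nt, chr9:28675367-28813286) both lie in phase 1 and match at 22 of 30 positions. The other 5 pairs of phase 1 members in these genes match at 7 to 10 of 30, so this pair is the closest of 6.
Negr1, second intron: atctcactgtgcaAGTcccaccgaaaatat
Opcml, next intron: atctcatagtgcaAGTtcctccccagataa
Members with many reads or great length serve as a contrast, since they come from unrelated genes. They are Dner (chr1:84585622-84695452, minus strand), Ctnna2 (chr6:77143944-77605180, minus strand) and Kcnd2 (chr6:21217414-21714134, plus strand).
Dner: ggcacctattgtcAGTttgttgcagatcct
Ctnna2: gagtacatgaataACActggaaggaaagag
Kcnd2: catgacaacactgGGGtatggcgacatggt
Of the 869 members that could be matched to GENCODE M21, 55.7% join an exon ending in AG, and 47.2% an exon starting with G. The shares among 137695 introns under 100 kb were 56.0% and 49.2%. The exon bases at the joins of long introns were therefore close to those of shorter ones, while Ctnna2 and Kcnd2 show that single members lack the AG. The bases inside the introns were not analysed here.

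The members ranged from 100090 to 496721 nt, with a median of 144555. Of the 904, 206 spanned 200 kb or more, 60 spanned 300 kb or more and 17 spanned 400 kb or more. The longest was intron 1 of Kcnd2 (mm9 chr6:21167414-21664134), which encodes a potassium channel of the neuronal dendrite. Its 496721 nt were crossed by 283 reads in replicate R1 and 466 in R2. The next were in Macrod2 (491062 nt, 87 and 108 reads), Tenm2 (479339 nt, 125 and 172), Dpp6 (477466 nt, 105 and 148) and Grip1 (475478 nt, 60 and 64). Macrod2 encodes a hydrolase of ADP-ribose marks, Tenm2 a teneurin of the synapse, Dpp6 a partner of Kcnd2-type channels and Grip1 a scaffold of glutamate receptors. The remaining 5 of the 10 longest lie in Nlgn1, ENSMUSG00000061864, Ctnna2, Nrg3 and Nrxn3, at 472564, 465135, 461237, 459873 and 443332 nt.

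At the threshold, the shortest members were in Slc8a3 (100090 nt, 75 and 109 reads), Chchd6 (100113 nt, 829 and 1168) and Bach2 (100130 nt, 91 and 133). Just outside lay introns of Hivep2 (99885 nt, 10 and 12 reads), Tln2 (99624 nt, 29 and 37) and Zfp521 (99490 nt, 276 and 422). Of the 3 just outside, 2 had fewer reads than each of the 3 just inside.

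Not every long intron was seen. Ensembl release 65 holds 1738 introns of 100000 nt or more, and 1269 of them (73.0%) have a row in the junction table. Of those 1269, 365 fell short of the read minimum, and none failed by the score alone. The share that became members did not depend much on length up to 500 kb. It was 53.0% of 1318 introns at 100 to 200 kb, 53.7% of 272 at 200 to 300 kb and 55.0% of 109 at 300 to 500 kb. By contrast none of the 39 Ensembl introns of 500 kb or more has a row, although the table lists unannotated junctions up to 2204827 nt. What limit on intron length the alignment had is not stated.

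Each member was crossed by a median of 62.5 reads in R1 and 90 in R2, over ranges of 10 to 1992 and 10 to 2461. Annotated junctions held 45929626 reads in R1 and 66095830 in R2, and the members took 0.254% and 0.252% of them. The median of introns under 100 kb was 130 and 190 reads. Across the 904 members length and reads showed little relation, with a Spearman rho of -0.046, while reads and the level of the host gene had a rho of 0.646 over 899 members. Both values are descriptions over introns that share libraries and in part host genes.

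**Figure D1:**
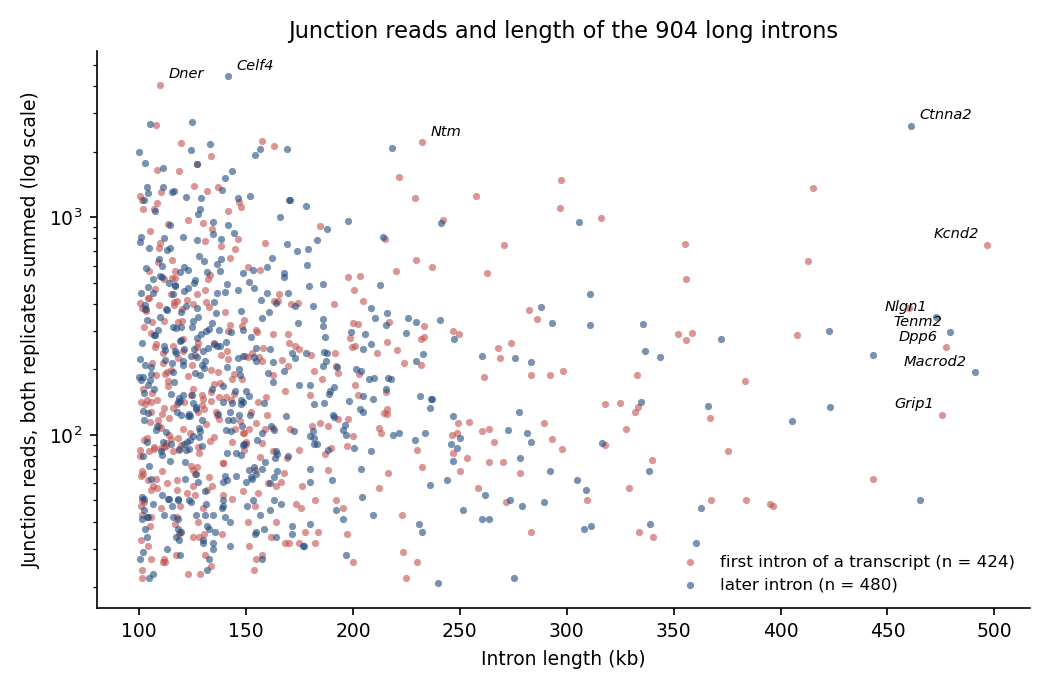
Junction reads of the 904 members, with both replicates summed on a log axis, against intron length in kb. First introns of a transcript (n = 424) and later introns (n = 480) are coloured apart, each point is 1 intron, and the Ctnna2 intron of 461237 nt stands among the introns with the most reads.

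The most reads fell on an intron of Celf4, which encodes an RNA-binding regulator of splicing and translation, with 1992 and 2461 reads over 141657 nt. Dner, a Notch ligand of neurons, followed with 1943 and 2122 reads over 109831 nt. Dclk1, a microtubule-binding kinase of migrating neurons, had 1174 and 1579 over 124569 nt. These junctions stood more than 10 times above the median member in each replicate.

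Ctnna2, the neuronal alpha-catenin that links cadherins to actin, held 3 of the 10 members with the most reads. The first spans 105224 nt with 1053 and 1633 reads. The second spans 461237 nt with 1024 and 1609 reads, and the third 133029 nt with 862 and 1312. Within 1 gene the intron of 461237 nt was therefore read through its junction about as often as an intron of 105224 nt, and its ratio to the neighbouring introns was -0.09 on the log2 scale. The other 4 of the 10 were in the kainate receptor gene Grik2 (1146 and 1498), the phosphatase subunit gene Ppp2r2b (957 and 1290), Ntm (925 and 1298) and Cmip (1038 and 1151).

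The 904 members lie in 589 genes, of which 581 are annotated as protein-coding. A single member was found in 417 genes, more than 1 in 172, 3 or more in 69 and 4 or more in 40. Members made up a median of 35.0% of the span of their host, and 282 members made up 50% or more. The extreme was Kctd16, where 1 intron of 271459 nt fills 99.5% of the gene.

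Ptprd, a receptor phosphatase that organises synapses, held the most members. Its 10 members span 102942 to 293130 nt and add up to 1994547 nt of a gene of 2270724 nt. Their reads ran from 53 to 259 in R1 and from 100 to 343 in R2. M21 places 7 of the 10 in noncoding transcripts and 2 before the start codon, and only the intron of 102942 nt in coding sequence.

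Hosts with 5 members differed in how many reads the members held. In Cdh13, a cadherin anchored by a lipid, 5 members of 103491 to 221705 nt held 572 to 922 reads in R1 and 718 to 1142 in R2, with donor use of 99.4% to 100%. In Cntnap2, a neurexin relative of the axon, 5 members held 75 to 150 and 138 to 225 reads, and no other junction used their acceptors.

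Macrod2 held the longest introns of these hosts. Its 5 members span 198943 to 491062 nt and add up to 1637598 nt of a gene of 1997658 nt. The intron of 198943 nt held 111 and 187 reads, the one of 209298 nt 70 and 77, and the one of 365930 nt 61 and 75. The one of 372365 nt held 98 and 178 reads and the one of 491062 nt 87 and 108. Reads did not follow length within the gene, and donor use was 92.0% or more in all 5.

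Other hosts combined full and partial members. In Erc2, a scaffold of the active zone, an intron of 130196 nt held 285 and 342 reads with donor use of 97.0%, and an intron of 172592 nt held 43 and 61 with donor use of 17.2%. In Dlgap1, a scaffold of the postsynapse, donor use of 5 members ran from 23.2% to 99.6%.

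By function, 215 of the 589 hosts, with 405 members, fell into 10 lists of neural gene groups, and 374 hosts fell into none. The lists were written with earlier results of these data known, so they are described by counts only. Among all 13897 genes with a passing intron 4.24% hosted a member. The counts below are over all genes of a list, but only genes with an annotated intron of 100 kb or more could host one. Such introns occur in 26 of 40 genes of IgLON, contactin and neurexin adhesion and in 15 of 25 cadherin genes. They occur in 20 of 27 teneurin-group, 19 of 38 axon guidance, 19 of 29 receptor and 28 of 41 ion channel genes. For transcription factors it was 26 of 47, for RNA-binding proteins 13 of 31, for scaffolds 29 of 46 and for kinases 41 of 57. In every list most of these genes hosted a member. The 4.24% also counts genes without such an intron, so the list shares have no matching background. Of 40 genes of IgLON, contactin and neurexin adhesion, 23 hosted 53 members, and Ntm had the most reads. Of 25 cadherins and protocadherins with their partners 13 hosted 34 members, led by Ctnna2. Of 27 teneurins, latrophilins and other synaptic receptors 18 hosted 53, led by Lrfn5 with 311 and 402 reads.

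Signalling and excitability genes came next. Of 38 axon guidance genes 18 hosted 25 members, led by the Slit receptor gene Robo2 with 395 and 560 reads over 305613 nt. Of 29 glutamate and GABA receptor genes 19 hosted 42, led by Grik2. Of 41 ion channel genes 27 hosted 35, led by Fgf13, a partner of sodium channels, with 360 and 631 reads over 316173 nt.

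Genes that act inside the cell were hosts as well. Of 47 neural transcription factor genes 24 hosted 40 members. Of 31 RNA-binding protein genes 12 hosted 19, led by Celf4. Of 46 cytoskeleton and scaffold genes 27 hosted 46, led by Dclk1. Of 57 genes of kinases, phosphodiesterases and G protein regulators 34 hosted 58, led by Mapk10 with 430 and 684 reads.

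Levels of the host genes were moderate. In TPM, which corrects for transcript length, the median over 585 hosts was 14.5 in replicate 1 and 14.0 in replicate 2 of the gene tables, or 14.3 ± 0.37 (SD, n = 2). The interquartile range of the mean was 6.59 to 29.3. In 581 hosts both libraries reached a TPM of 1. The median over genes with an intron under 100 kb was 19.0, and over genes with an intron of 50 to 100 kb it was 15.4.

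The highest hosts were the myelin proteolipid relative Gpm6b at 237 ± 6.92 TPM, Celf2 at 177 ± 20.1, Abr at 171 ± 16.1, Celf4 at 169 ± 15.5 and 2900011O08Rik at 155 ± 7.87. The lowest were Iqcj at 0.395 ± 0.021, Gm20696 at 0.545 ± 0.0071, Oca2 at 0.68 ± 0.057, Grin2a at 1.03 ± 0.0071 and Il1rapl1 at 1.09 ± 0.021. Long introns were thus crossed by reads in genes over a wide range of levels, down to a TPM under 1.

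The tissue label was checked against marker genes. All 10 markers of the central nervous system were above a TPM of 1 in both libraries, with summed levels of 7861 and 7628 TPM. The 12 skeletal muscle markers summed to 20.8 TPM in replicate 1, where 5 reached a TPM of 1, and to 761 in replicate 2, where all 12 did. The 8 cartilage and bone markers summed to 9.75 and 53.6 TPM, and the 7 blood and platelet markers to 977 and 558. None of these muscle, bone and blood markers has an annotated intron of 100 kb or more, so none could host a member. The same holds for the markers of the central nervous system. No host was 2-fold apart between the libraries in TPM plus 1, with log2 ratios of -0.74 (Tiam1) to 0.62 (Ntng1). Which library is R1 and which is R2 of the junction table is not stated, and the part of other tissue in the differences below was not tested.

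R1 and R2 gave similar reads for most members. After scaling to the total of annotated junction reads, with a pseudocount of 1, the median log2 ratio of R2 to R1 was 0 to the second decimal, and its SD over the 904 members was 0.38. In all 18 members (1.99%) were 2-fold or more apart, against a background of 2.36% of all 142133 passing introns. Of these 8 were higher in R2, or 0.885% against 1.5%, and 10 were lower, or 1.11% against 0.86%. The members' shares lie near the background, and with 1 library on each side no test was possible.

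Among the largest ratios towards R2 were those in Bnc2 (12 and 44 reads), Fam19a4 (10 and 37), Dgkb (11 and 40) and Gpc5 (21 and 74). The largest towards R1 were in Magi1 (40 and 21), Mtus2 (22 and 13), 2610307P16Rik (17 and 10), ENSMUSG00000090828 (20 and 12) and Kcnq5 (31 and 19). All of these rest on fewer than 100 reads in each replicate. With 20 or more reads required in each replicate 8 members were past 2-fold, and without scaling 75 were.

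**Figure D2:**
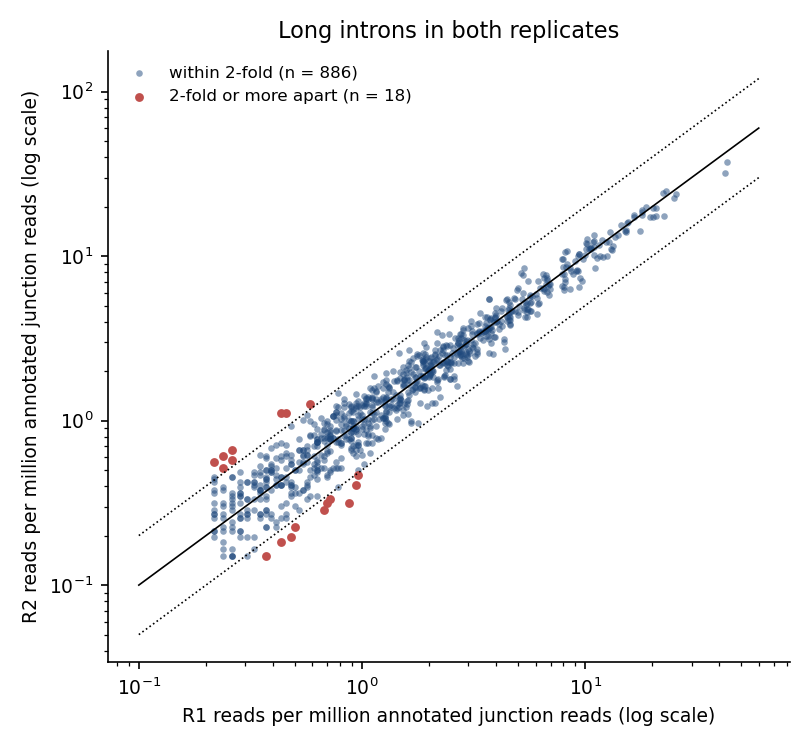
Junction reads of each member in R1 and R2, each scaled to the total of annotated junction reads, on log axes. The solid line marks equality and the dotted lines 2-fold, and the 18 members past 2-fold hold at most 110 reads over both replicates.

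Members were first introns far more often than shorter introns were. In 424 of 904 members (46.9%) the intron is the first of at least 1 Ensembl transcript, against 18.5% of 141229 introns under 100 kb. In 208 members (23.0%) the earliest place was intron 2, in 108 (11.9%) intron 3 and in 164 (18.1%) a later one. The share of first introns was higher in each longer class, at 42.7% for 50 to 100 kb, 45.3% for 100 to 200 kb, 51.4% for 200 to 300 kb and 55.0% for 300 kb or more. Among the shorter introns of the host genes themselves 9.86% were first introns. With the stricter rule that the intron is first in every transcript, the share was 38.6% of members against 10.05% of introns under 100 kb.

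The place of the members relative to the coding sequence was taken from M21. Of 869 matched members 682 (78.5%) interrupt the coding sequence, 142 (16.3%) lie before the start codon, 41 (4.72%) in noncoding transcripts and 4 after the stop codon. Among introns under 100 kb 91.5% interrupt the coding sequence and 5.19% lie before the start codon. Introns of 50 to 100 kb were further from that than the members, with 75.6% in the coding sequence and 20.8% before the start codon. First introns under 100 kb lie before the start codon in 23.4%, and first-intron members in 22.0%. Later introns under 100 kb lie there in 1.07%, and later members in 11.4%.

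Phase 1 was more frequent in longer classes of coding introns. An intron of phase 1 falls after the first base of a codon, and exons between introns of phase 1 can be added or left out without a shift of the reading frame, as in many genes of extracellular protein domains. Phase 1 held 306 of 682 coding members (44.9%), against 31.2% of 125975 coding introns under 100 kb. It held 39.9% at 50 to 100 kb, 42.4% at 100 to 200 kb, 50.5% at 200 to 300 kb and 59.6% at 300 kb or more. Among shorter coding introns of the host genes it held 35.1%. Phase 0 held 37.2% of coding members against 46.4% under 100 kb and 42.2% at 50 to 100 kb, and phase 2 held 17.9% against 22.4% under 100 kb. Phase 1 held 44.6% of the first-intron members in coding sequence and 45.1% of the later ones.

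The groups of genes differed widely in phase. In the group of IgLON, contactin and neurexin adhesion 33 of 46 coding members were in phase 1 and 6 in phase 0, and in the teneurin group 20 of 26 were in phase 1. Among RNA-binding protein genes 1 of 15 was in phase 1 and 11 in phase 0. Ion channel genes had 9 of 32 in phase 1 and 18 in phase 0. Cadherins had 15 of 29 in phase 1 and 13 in phase 0, and axon guidance genes 15 of 21 in phase 1. No test of these differences was made, because members share hosts and families.

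**Figure D3:**
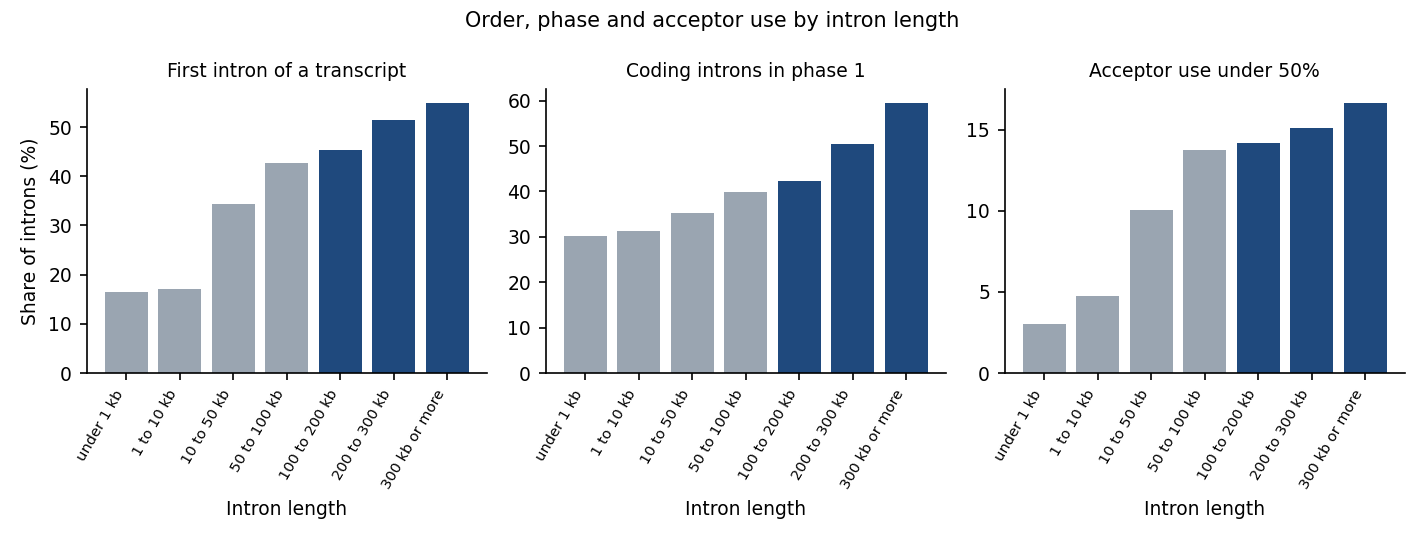
Share of introns that are the first of a transcript, share of coding introns in phase 1, and share with acceptor use under 50%, in percent, by class of intron length. Grey bars are introns under 100 kb and blue bars the members, all under the same read and score limits. In each panel the highest bar is that of 300 kb or more, at 55.0%, 59.6% and 16.7%.

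Most members were the main partner of their splice sites. Use is the share of all junction reads at a site that the member takes, and it was computed at the donor and at the acceptor. Donor use had a median of 98.1% ± 0.16 (SD of the medians of 2 replicates) and acceptor use of 97.4% ± 0.21, while introns under 100 kb had medians of 100% at both. Introns of 50 to 100 kb were close to the members, with medians of 99.0% and 97.8%. Donor use was 95% or more in 623 members and acceptor use in 557. In 153 members every read from the donor in both replicates went to the member, and in 139 every read at the acceptor came from it. These 4 counts were not made for shorter introns. The medians of 100% under 100 kb show that full use is usual there, so it is not a trait of long introns. Full use also depends on the number of reads at the site.

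A minority shared their sites. Donor use was under 50% in 60 members (6.64%), against 4.04% of introns under 100 kb, 6.97% at 10 to 50 kb and 6.40% at 50 to 100 kb. Acceptor use was under 50% in 131 members (14.5%), against 4.55% of introns under 100 kb, 10.03% at 10 to 50 kb and 13.7% at 50 to 100 kb. In 40 members both sites were under 50%. Of the 131 with low acceptor use, 74 were first introns. First introns under 100 kb had low acceptor use in 10.6%, and first-intron members in 17.5%. For later introns the shares were 3.17% and 11.9%. Low acceptor use was thus more frequent in members than in all introns under 100 kb, both among first and among later introns.

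Some members compete with each other. In all 66 members share their acceptor with another member, at 29 acceptors, and 41 share their donor, at 20 donors. Dpp6 holds 3 members at 1 acceptor. The intron of 120393 nt took 38.6% ± 2.12 of its reads (111 and 165), the one of 477466 nt took 35.6% ± 3.29 (105 and 148) and the one of 332941 nt took 25.1% ± 5.44 (59 and 129). Together the 3 first introns accounted for 99.3% ± 0.034, and the order of the first and second was within the spread of the replicates.

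The protocadherin alpha cluster, in which each variable first exon is joined to the same constant exon, is the extreme case. Its 7 members, counted under Pcdha11 in the annotation, span 133531 to 223482 nt and end at 1 acceptor. Each took 1.43% to 11.6% of the reads there and together 45.1% ± 3.64. Their own donors were used for the member in 98.4% to 100%. The reads over all 7 were 393 in R1 and 502 in R2.

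The lowest donor use belonged to 2900011O08Rik, at 1.18% ± 0.005 with 21 and 28 reads over 102052 nt. Apba2 followed at 2.59% ± 0.50 (29 and 33 reads), Ncald at 4.29% ± 0.66 (20 and 27), Kcnip1 at 4.45% ± 1.77 (19 and 16) and Pbx3 at 8.17% ± 3.45 (43 and 27). The lowest acceptor use was 0.958% ± 0.015 in Gm38393 (134 and 173 reads), 1.10% ± 0.037 in 2900011O08Rik, 1.43% and 2.93% in 2 protocadherin alpha members and 2.99% ± 0.27 in Ncald (11 and 17 reads). The hosts 2900011O08Rik and Apba2 stand at 155 and 136 TPM, while Gm38393 and Pcdha11 stand at 7.64 and 3.05, below the median host in TPM. In the authors' RPKM on mm9, Gm38393 stands at 58.2 and 39.8 and Pcdha11 at 13.8 and 12.2. Both are above the median host of 1.86 RPKM, so their rank differs between the measures.

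Some members skip an exon that other reads include. In 83 members 97 cassette arrangements were found, in which 1 junction leaves the donor, another reaches the acceptor and the gap between them is at most 500 nt, with 5 or more reads of each inner junction in each replicate. Both junctions were annotated in 48, 1 in 19 and neither in 30. The length of the exon was a multiple of 3 in 42 of 97. It was so in 24 of the 48 with both junctions annotated and in 11 of the 30 with neither. Some arrangements share an exon or a junction, so they are not separate exons. The same search was not made in shorter introns, so these counts have no background. Inclusion, the mean of both inner junctions over that mean plus the skipping reads, was 50% or more in 41 arrangements and under 10% in 16.

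In 2900011O08Rik the inner exon of 124 nt had an inclusion of 98.9% ± 0.018, and the member is the skipping product. In Apba2, which encodes an adaptor of presynaptic proteins, the exon of 54 nt had 97.0% ± 0.48, and in Fyn, a Src-family kinase gene, the exon of 70 nt had 92.5% ± 0.091 beside 109 and 134 skipping reads. Among arrangements with neither junction annotated the highest inclusion was 79.9% ± 4.71 in Ncald, for an exon of 92 nt, and 77.2% ± 3.33 in Gm38393, for an exon of 104 nt. Inclusion counts only the member against the inner pair. In Ncald the inner junctions were uneven, with 9 and 15 reads from the donor and 63 and 154 to the acceptor. Set against another Ncald member, of 131047 nt with 141 and 268 reads, the same exon of 92 nt had an inclusion of only 24.1% ± 1.92. In Gm38393 the inner junctions had 216 and 390 reads from the donor and 580 and 953 to the acceptor, against 134 and 173 for the member.

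Unannotated junctions that met the same read and score limits and lay inside the member used the donor of 41 members and the acceptor of 59, in all 83 members. Shorter introns were not counted in this way, so these numbers have no background. Whether such junctions are more or less frequent in long introns was not tested. In Grik2 a member of 101009 nt (307 and 508 reads) shared its donor with an unannotated junction of 99345 nt that had 100 and 153 reads, or 24.4% and 23.1% of the donor's reads. In Srpk2 a junction of 59329 nt took 19.6% and 16.1% of the donor's reads. Of the 10 such donors with the most reads, those of ENSMUSG00000079369 and ENSMUSG00000079376 on chromosome 14 belong to near-identical gene copies, so their values are uncertain.

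Members were read about as often as the introns beside them. The ratio of a member's reads to the mean of the next introns upstream and downstream in the same transcript had a median of -0.12 ± 0.0066 on the log2 scale, over 888 members. For introns under 100 kb the median was -0.02 ± 0.0025. Of the 888, 706 were within 2-fold of their neighbours, 132 were 2-fold or more below and 50 above. Against the upstream neighbour alone the median was 0.11 and against the downstream one -0.15, so the sign depends on the side. The share 2-fold or more below was 14.9%, against 9.02% of all shorter introns, and the share above 5.63%, against 4.91%. Introns of 50 to 100 kb were close to the members, with 15.5% below and a median of -0.11, and those of 10 to 50 kb had 13.6% below and a median of -0.08.

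The lower values lay with first introns and shared sites. First-intron members had a median of -0.19, against -0.07 for first introns under 100 kb, and later members -0.06, against -0.02. Of the 132 members 2-fold or more below, 81 were first introns and 102 had a donor or acceptor use under 50%. Set against the upstream neighbour alone, later members had a median of 0.07, and shorter later introns 0.06. Set against the downstream neighbour alone, the medians were -0.07 and -0.05. Against both neighbours 10.6% of later members were 2-fold or more below, and 7.34% of shorter later introns. No test was made, because the members' own reads chose them.

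Coverage inside the members was read from the deposited contigs, which are stretches of continuous coverage with a level each. The level is the authors' own value, and its scale is not stated. Contigs were used in 868 members, and 36 were not analysed here, because no contig covers the exon bases beside them. Of those, 33 lie past the last contig listed for their chromosome. Bases in exons of either strand were left out. Coverage and level were taken from contigs with an irreproducibility score of at most 0.1.

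Contigs on the host strand covered a median of 87.5% of the bases of a member, with an interquartile range of 69.5% to 94.3%, and those on the other strand 0.628%. The coverage was over 95% in 193 members and under 10% in 15. In introns of 50 to 100 kb the host strand had a median of 81.6%, and in those of 10 to 50 kb of 89.5%. Coverage on the host strand thus ran over most of the length of most members, in libraries selected for poly-A tails.

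Coverage and level were lower towards the 3′ end. Each intron was split into 10 equal bins, numbered from the 5′ end. From bin 1 to bin 10 the median share of covered bases went from 98.1% to 63.0%, and the median level from 0.256 to 0.0612. The level was 0.180 in bin 2, 0.138 in bin 5 and 0.0657 in bin 9. With contigs of any score the median share of covered bases was 98.2% in bin 1 and 72.6% in bin 10. These values include contigs that reach into an exon. With contigs that touch an exon left out, the median share went only from 63.9% to 51.5%. The median level then went from 0.0809 to 0.0356, so the size of the decline depends on these contigs.

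The direction was shared by most members. Bin 1 was higher than bin 10 in 785 of 868 members and lower in 82. Bin 2, which lies away from the exon, was higher than bin 9 in 807 and lower in 55. With contigs that touch an exon left out, bin 1 was higher than bin 10 in 660 and lower in 199, and a contig that touches an exon carries exon reads too.

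Shorter introns differed less between these bins. At 50 to 100 kb the level was 0.112 in bin 2 and 0.0529 in bin 9, and bin 2 was higher in 1335 and lower in 273 of 1646 introns. At 10 to 50 kb the values were 0.122 and 0.0965, and bin 2 was higher in 5313 and lower in 4202 of 10876. A contig has a single level and can be longer than a bin of a short intron, so bins of short introns can share 1 contig. Contigs that touch an exon were left out only for the members, not for the shorter classes. How far this lowers the difference in shorter introns was not tested. No test of the difference between the classes was made, since the introns of 1 gene share a source.

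**Figure D4:**
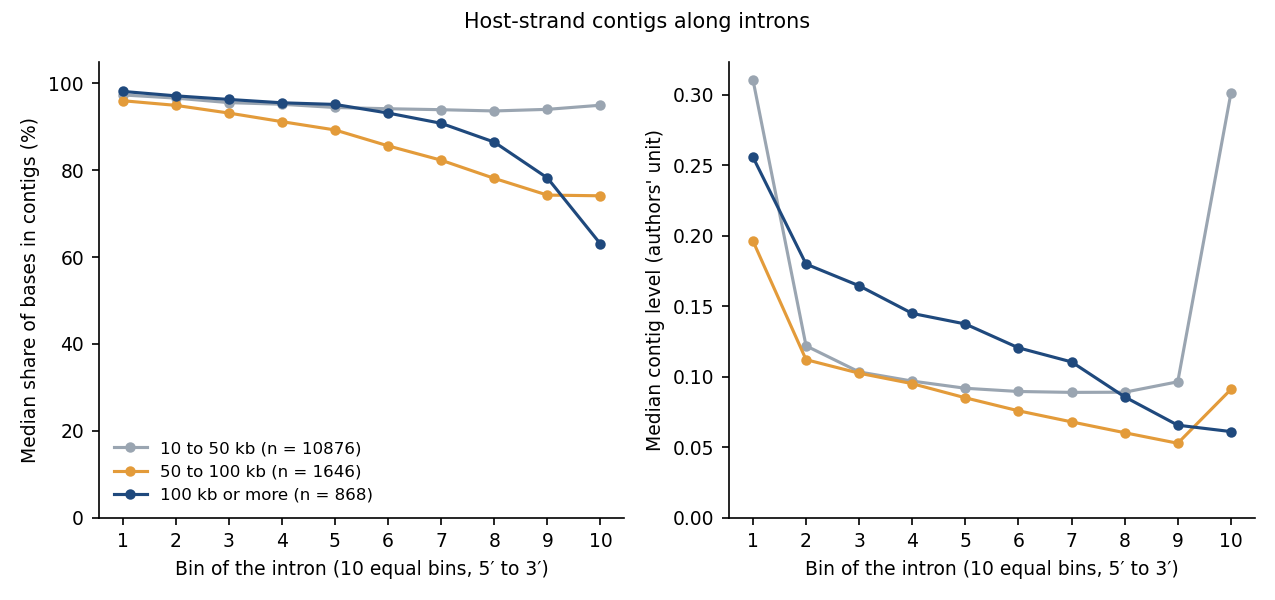
Median share of bases in host-strand contigs, in percent, and median contig level, in the authors' unit, for 10 equal bins of the intron from 5′ to 3′. Lines are introns of 10 to 50 kb (n = 10876), 50 to 100 kb (n = 1646) and members (n = 868). With contigs that touch an exon included, the level of members goes from 0.256 in bin 1 to 0.0612 in bin 10.

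Points of the recursive kind were sought in all members, as 2 junctions of any score, of which the first leads from the donor to a position and the second leads from the very next base to the acceptor, with no exon between. Only 3 such points were found, 2 of them in Ncam1 and 1 in Hs6st2. Ncam1 encodes the neural cell adhesion molecule, at 136 and 117 TPM, and its first intron spans 228777 nt (mm9 chr9:49378006-49606782, minus strand) with 482 and 740 reads. The first point lies 79312 nt from the donor, with 20 and 24 reads from the donor and 2 and 2 reads to the acceptor. The second lies 156419 nt from the donor, with 27 and 28 reads from the donor and 2 and 1 to the acceptor. In Hs6st2, a gene of heparan sulfate modification, the point at 206550 nt of 208483 had 0 and 3 reads from the donor and 2 and 1 to the acceptor, a count at which single alignments decide.

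The contigs of the Ncam1 intron do not decline evenly. Their level was 0.984 in the contig that starts at the donor exon and 0.455 in the contig before the one with the first point. The contig that holds the first point, from 65482 to 126650 nt from the donor, had 0.618. The level was then 0.186 in the contig from 142202 to 151900 nt and 0.760 in the next, from 151916 to 195046 nt, which holds the second point. The last contig, at 2.34, includes the acceptor exon. Both points thus fall in contigs with a higher level than the contig before, and both contigs begin upstream of the point, so their edges do not coincide with it. Contigs without a point rose as well, to 0.534 after 0.323 and to 0.539 after 0.432, so a rise is not particular to the points. The exon bases joined across the whole Ncam1 intron, in phase 1, are those of M21 around chr9:49569901-49798677 on GRCm38.
Ncam1: tcctgggaactgcAGTttccctgcaggtag

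**Figure D5:**
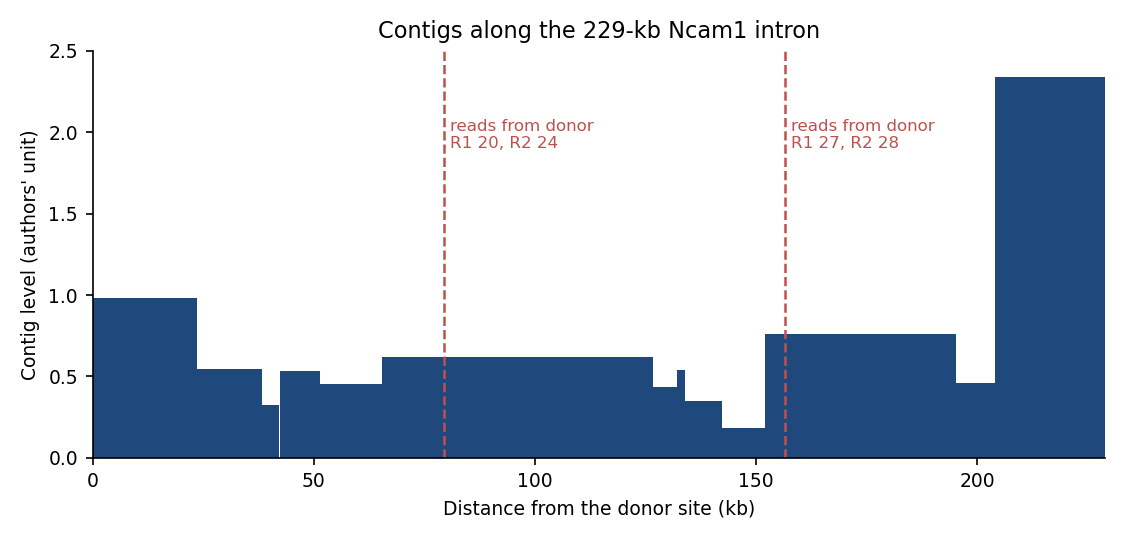
Level of host-strand contigs, in the authors' unit, along the Ncam1 intron, against the distance from the donor site in kb. Dashed lines mark the 2 points and the reads from the donor in R1 and R2, 20 and 24 at the first and 27 and 28 at the second. The contigs that hold the points have levels of 0.618 and 0.760.

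Long introns also hold whole genes. Ensembl 65 lists 475 genes that lie entirely inside 333 members, of which 181 are on the strand of the host and 294 on the other. By type 131 are processed pseudogenes and 33 are protein-coding. The authors' RPKM was 1 or more in both replicates for 29 of the 475, including 7 protein-coding genes.

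Lrrtm1, which encodes a synaptic adhesion protein, lies on the other strand inside the Ctnna2 intron of 461237 nt and had 6.46 ± 0.20 RPKM. The RNA processing gene Cstf2t lies in an intron of Prkg1 at 5.35 ± 0.0049 RPKM, and Bend5 in Agbl4 at 3.80 ± 0.16. Timp3, an inhibitor of metalloproteinases, lies in Syn3 at 2.74 ± 0.13, and Flrt3, a ligand of latrophilins, in Macrod2 at 1.47 ± 0.066. Bend5 is on the strand of its host, so its RPKM can include unspliced reads of Agbl4. The highest value was that of Gm10132 in Enox1, at 120 ± 4.02 RPKM, a processed pseudogene whose reads can come from the gene it copies. Next came Gm26315, annotated as a miscellaneous RNA on the host strand in Celf2, with 64.4 and 109 RPKM.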

How the data were processed

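Polyadenylated RNA over 200 nt from 2 libraries was sequenced as stranded pairs of 101 nt, per the labels. On mm9 the authors deposited, for the whole series, junction read counts of 2 replicates with an irreproducibility score, a signal level with a score per contig, and RPKM per gene of Ensembl release 65. These replicates are not tied to a library. On mm10 the authors deposited expected counts, TPM and FPKM per gene for each library, with 93979836 and 137012773 counts on genes. The aligner is not given in the sources used here.

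Members were taken by the stated rule. Hosts were assigned on the same strand through the annotated transcripts. Neighbours are the next introns in the transcript with the most junction reads. Place, phase and exon bases came from GENCODE M21 for 869 members whose gene has 1 intron of exactly the same length. No coordinates were moved between builds. SDs are over 2 replicates and cover only the spread between these libraries. The 10 gene lists and marker lists, the members and the rule for named genes (most reads, longest, hosts with several members, extreme ratios and uses, top of each list, edge of the threshold) were chosen with earlier results of these data known. Other members were named after their values were seen, and a few that the rule names are not reported here. Python 3.11.15, pandas 2.3.3, NumPy 2.4.6 and SciPy 1.17.1 were used.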

Additional observations from a re-analysis of the deposited data

How the results depend on the processing

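The number of members was 2607 with a minimum of 50000 nt and 206 with 200000. With read minimums of 5 and 20 it was 990 and 768, with other score limits 904, and with 1 replicate alone 916 to 976. Members past 2-fold numbered 75 without scaling and 8 with 20 reads in each replicate. Median donor and acceptor use were 100% with only annotated or only reproducible competitors, so the lower medians rest on rare and poorly reproduced junctions. Donor use was 97.9% with replicates summed. Against the upstream neighbour alone the median log2 ratio was 0.11, and against the downstream neighbour -0.15, so its sign depends on the neighbour chosen. First introns made up 38.6% when first in every transcript and 53.5% with 1 member a host gene. Host levels had a median of 8.87 as FPKM and 1.86 as RPKM. Without replicate 1 or 2, donor use was 98.0% to 98.2%, acceptor use 97.3% to 97.6%, the ratio to neighbours -0.12 to -0.11 and the host level 14.0 to 14.5 TPM. With 1 member a host gene, phase 1 held 43.3%. The alternatives for contigs, replicates summed and 1 member a host gene were chosen after seeing the data. No paired analysis was possible because the series has 1 group. At 10 reads a replicate, use values have wide counting intervals.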
